A study of Homo sapiens with 3 samples.

Results

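BCL2, on chromosome 18, encodes a protein of the outer mitochondrial membrane that holds back apoptosis. It does so by binding the pore-forming proteins BAX and BAK and the BH3-only proteins that set them off. B cells of the germinal centre normally keep BCL2 low, and many lymphomas of germinal-centre origin have it high. In follicular lymphoma and a part of diffuse large B-cell lymphoma (DLBCL), a translocation places BCL2 beside the enhancers of the immunoglobulin heavy chain. The labels do not say whether the cells used here carry such a rearrangement.

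The locus was taken as all intervals of the deposited lists that overlap chromosome 18 from 60690000 to 61090000 on hg19, a window of 400 kb. Within it the BCL2 gene body runs from 60790579 to 60986613, 196 kb, on the minus strand. The start site is therefore at the high coordinate, 60986613, and transcription runs towards lower coordinates. The window held 30 of 215598 CREBBP peaks and 15 of 18263 regions of histone H3 acetylated at lysine 27 (H3K27ac), counted over chromosomes 1 to 22 and X. On chromosome 18 outside the window there were 6139 CREBBP peaks and 348 H3K27ac regions.

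The study used SC1, a human lymphoma line that the labels give as DLBCL, grown in culture with no treatment or genetic change named. The samples were a chromatin immunoprecipitation with sequencing (ChIP-seq) for CREBBP, one for H3K27ac, and an input without antibody, 1 of each. CREBBP is an acetyltransferase that acetylates histones, among them H3 at lysine 27, and H3K27ac marks active promoters and enhancers. With 1 sample a group there is no replicate error, and the values describe these libraries with no test between conditions. The input was not analysed here, and the cell type label was not set against marker genes, since no gene annotation of hg19 was used.

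In the order of protein-coding genes of the RefSeq table for GRCh38.p14, PHLPP1, a phosphatase gene, neighbours BCL2 on the lower side, past the gene end. On the side of the start site lie KDSR, which acts in sphingolipid synthesis, and VPS4B, an ATPase of the endosomal sorting machinery. The positions of these neighbours on hg19 were not used, so no interval is assigned to them.

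The start site of BCL2 lay inside an H3K27ac region, and the stretch just upstream of a gene's start is where its promoter is sought. For this reason the 250 bases before the start are shown as RefSeq gives them for GRCh38.p14, at chr18:63319770-63320019 on the minus strand, read 5′ to 3′. The RefSeq start belongs to another build and need not be the start used for the hg19 distances. Capitals mark each C followed by G.

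BCL2 promoter: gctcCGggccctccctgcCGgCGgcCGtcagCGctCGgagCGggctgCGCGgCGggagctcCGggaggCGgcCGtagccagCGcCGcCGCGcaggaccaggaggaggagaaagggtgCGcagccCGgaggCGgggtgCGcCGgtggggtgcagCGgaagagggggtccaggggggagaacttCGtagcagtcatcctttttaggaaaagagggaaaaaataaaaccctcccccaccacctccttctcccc

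This stretch held 24 CG pairs and was 70% G and C, against medians of 11 pairs and 58.0% over 35116 promoter stretches of the same table and length. Fewer CG pairs were found in 76.3% of all these stretches. CREBBP is named for its binding to the factor CREB, whose site is TGACGTCA. That full site was not among these 250 bases and is in 1.65% of all promoter stretches. The shorter TGACG, or its reverse complement CGTCA, occurred once, beginning at base 26, and is in 21.2% of all. Neither GGGCGG nor TATAAA, on either strand, was found in the stretch. They are in 42.6% and 10.7% of all promoter stretches.

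H3K27ac covered more of the BCL2 window than of any other window of its size on chromosome 18. The 15 regions covered 64.3 kb, 16.1% of the window, against a median of 627 bases in the other 193 windows laid edge to edge. The next window, from 53090000 to 53490000, had 60.8 kb in 15 regions, and the one after that, from 3490000 to 3890000, had 40.0 kb in 10. The lead over the second was 1.06-fold. Of the 194 windows, 92 held no H3K27ac region. The BCL2 window made up 0.513% of the chromosome's extent and held 8.03% of its H3K27ac-covered length. When windows were instead placed every 50 kb, 4 of 1535 covered more than the BCL2 window, so its first place depends on where windows begin.

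**Figure D1:**
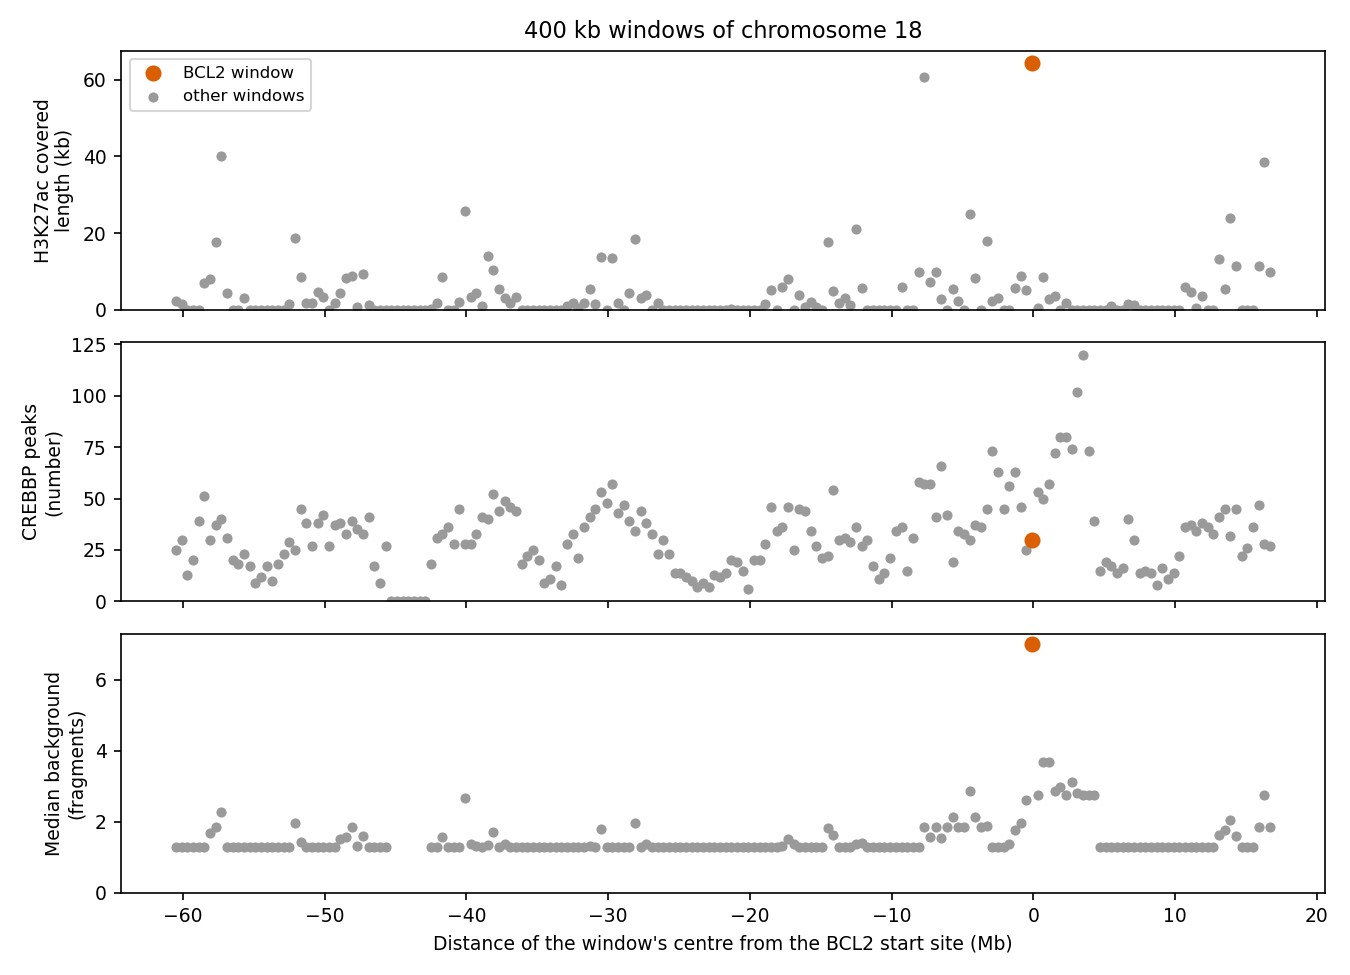
Each point is a window of 400 kb on chromosome 18, plotted at the distance of its centre from the BCL2 start site in Mb, with the BCL2 window in orange and other windows in grey. The panels give the H3K27ac-covered length in kb, the number of CREBBP peaks and the median solved background in fragments. The BCL2 window is highest for H3K27ac (64.3 kb) and for background (7.02 fragments), while its 30 CREBBP peaks equal the median of the other windows.

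Most of the mark lay in the gene. The gene body was covered over 47.8 kb, 24.4% of its length. The flank beyond the gene end was covered over 11.5 kb, 11.4% of its length, and the flank beyond the start site over 5.08 kb, 4.92%. Along the gene the mark was absent from a long middle stretch. In 10 equal parts of 19.6 kb, counted from the start, part 1 was covered over 36.8% and part 2 over 4.66%. Parts 3, 4 and 5 had none. Coverage was 34.1% in part 6, 17.6% in part 7 and 12.1% in part 8. Part 9 was covered over its full length and part 10, at the gene end, over 38.5%.

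The start site lay in an H3K27ac region from 60979405 to 60989123. The region was 9.72 kb wide and reached 7.21 kb into the gene and 2.51 kb beyond the start. The fold enrichment that the authors' peak caller gave for it, the ratio of its signal to the background expected there, was 6.70, with a −log10 q of 47.4. It ranked 7 by width among the 363 regions of chromosome 18 and held 15.1% of the window's covered length. A small region of 0.914 kb, from 60952334 to 60953247, lay 33.4 kb into the gene, with a fold of 3.21.

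Past that small region came the longest stretch of the gene without the mark, 70.7 kb from 60881628 to 60952333. It held 6 CREBBP summits, none of them with a q of at most 0.05.

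The widest region of chromosome 18 was in the part of BCL2 near the gene end. It ran from 60804856 to 60830538, 25.7 kb, and its edge nearest the start site was 156 kb from it. Its fold was 6.12 and its −log10 q 54.1. By width it ranked 1 of 363 on the chromosome and 10 of 18263 in the list, and it alone held 39.9% of the window's covered length. A region of 2.22 kb with a fold of 2.75 lay 4.33 kb below it, from 60798302 to 60800521. Joined over gaps of up to 12.5 kb, both formed a domain of 27.9 kb covered, which ranked 2 of 258 on chromosome 18 and 36 of 13232 in the list.

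Between the widest region and the unmarked stretch lay 6 further regions of the gene. They ran from 60844975 to 60845699 (0.725 kb, fold 4.13), from 60848499 to 60851403 (2.90 kb, fold 3.88) and from 60860372 to 60860681 (0.310 kb, fold 2.69). The others ran from 60864570 to 60865697 (1.13 kb, fold 5.24), from 60873173 to 60879261 (6.09 kb, fold 3.80) and from 60881028 to 60881627 (0.600 kb, fold 3.23). Joined over the same gaps they gave a domain spanning 36.7 kb with 11.8 kb covered. The widest of these 6 was the only one with a CREBBP peak.

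Outside the gene, 3 regions lay past its end. They were 5.50 kb wide with a fold of 3.59 (60764462 to 60769956), 4.32 kb with 2.99 (60772282 to 60776600) and 1.67 kb with 2.31 (60778508 to 60780172). Below them the window had no H3K27ac for 74.5 kb, and the nearest region beyond its lower edge was 305 kb away. On the other side, 2 compact regions lay beyond the start site. The first, 47.0 kb from the start at 61033645 to 61035083, was 1.44 kb wide and had the largest fold of the window, 10.2, with a −log10 q of 136. The second crossed the upper edge of the window at 61088868 to 61090472, with a fold of 5.64. Neither held a CREBBP peak.

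**Figure D2:**
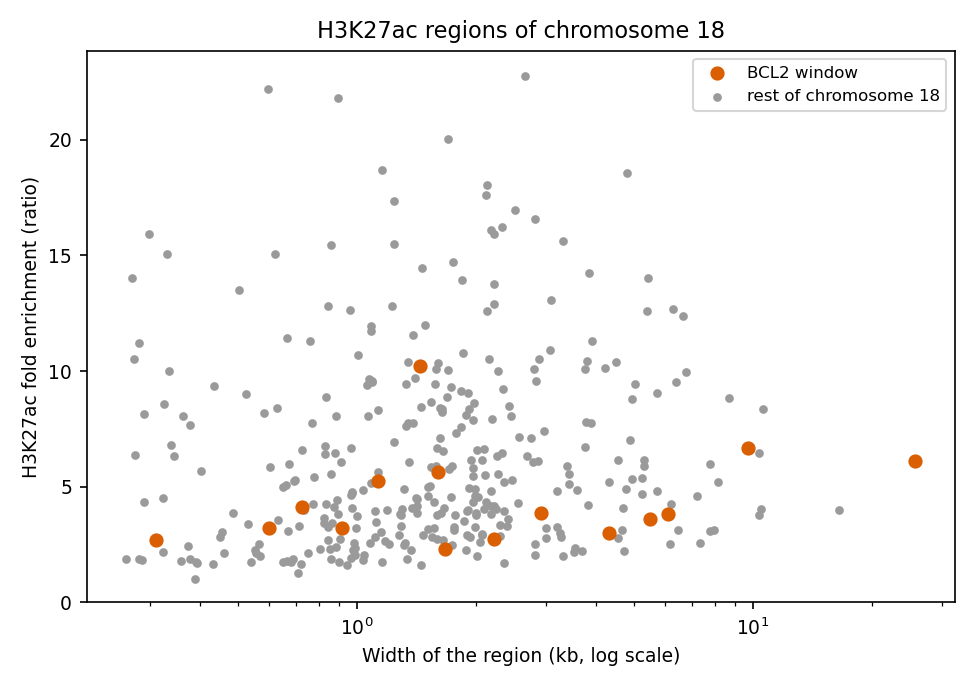
Each point is an H3K27ac region of chromosome 18, with its width in kb on a log axis and the authors' fold enrichment on the other, in orange for the 15 regions of the BCL2 window and in grey for the other 348. The BCL2 regions include the widest, at 25.7 kb, while their folds, from 2.31 to 10.2, lie within those of the rest.

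The window's place rests on the number of its regions and on a few wide ones. The median fold of the 15 was 3.80 (2.31 to 10.2), against 5.11 on the rest of chromosome 18 (interquartile range 3.16 to 8.60). Their median width was 1665 bases, against 1579.5 on the rest of the chromosome, and the regions of 25.7 kb and 9.72 kb together held 55.0% of the covered length. Only 4 of the 15 were in the upper 50% of the list by q. They were the widest region, the one at the start site and the 2 beyond the start.

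CREBBP peaks were not numerous at BCL2, but those in the marked stretches had many fragments. The count of 30 equalled the median of the other windows, of which 90 had fewer, 7 as many and 96 more. The most were 120 peaks from 64290000 to 64690000 and 102 from 63890000 to 64290000, and neither window held an H3K27ac region. Next came 80 from 62690000 to 63090000, with no region, and 80 from 63090000 to 63490000, with 1 of 1.69 kb. The number of ChIP fragments at each summit and the background expected there were solved from the deposited fold and p. The solution assumes that fold is fragments plus 1 over background plus 1 and that p is the upper Poisson tail. Both numbers are inferences. They matched all 30 peaks of the window.

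Of the 30 peaks, 5 had a q of at most 0.05, 16.7% (exact Clopper-Pearson 95% interval 5.64 to 34.7%), against 1.81% of the whole CREBBP list. On the rest of chromosome 18 there were 124 of 6139, 2.02%. All intervals of shares stand for counting error alone and take peaks to be independent. Only 3 of the other 193 windows held more peaks of that strength, 15 from 63890000 to 64290000, 8 from 62290000 to 62690000 and 6 from 64290000 to 64690000. All 5 of these BCL2 peaks lay in the 2 widest H3K27ac regions of the window, 4 in the widest and 1 at the start site. On the rest of chromosome 18, 36 of the 124 lay in H3K27ac regions. Among peaks in H3K27ac regions, such a q was met by 45.5% in the window (16.7 to 76.6%). It was met by 13.9% on the rest of the chromosome (9.93 to 18.7%).

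In the widest region, the peak from 60824678 to 60825271 had the largest −log10 q of the window, 4.68. Its fold was 2.57, with 49 fragments over a background of 18.5. The peak from 60809023 to 60809864 had 60 fragments over 25.9, a fold of 2.27 and a −log10 q of 4.28. At 60822647 to 60822993 stood the most fragments of the window, 90, but over the highest background, 52.7, which gave a fold of 1.70 and a −log10 q of 2.05. The peak from 60805311 to 60806509, 1199 bases wide, had 45 fragments over 21.5 and a −log10 q of 1.67. The remaining peak of the region, from 60829642 to 60830200, had 32 over 16.0 and missed the threshold with a −log10 q of 0.554. The order by fragments and the order by fold thus differ within 1 region.

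At the start site, the nearest CREBBP peak ran from 60987136 to 60987951 and lay 523 bases upstream of the annotated start. It had 57 fragments over a background of 26.8, a fold of 2.09 and a −log10 q of 2.86. No peak covered the start site itself. A second peak in the same H3K27ac region, from 60980129 to 60980416, was 6.33 kb into the gene by its summit. It had only 13 fragments over 7.39 and a −log10 q of 0.

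**Figure D3:**
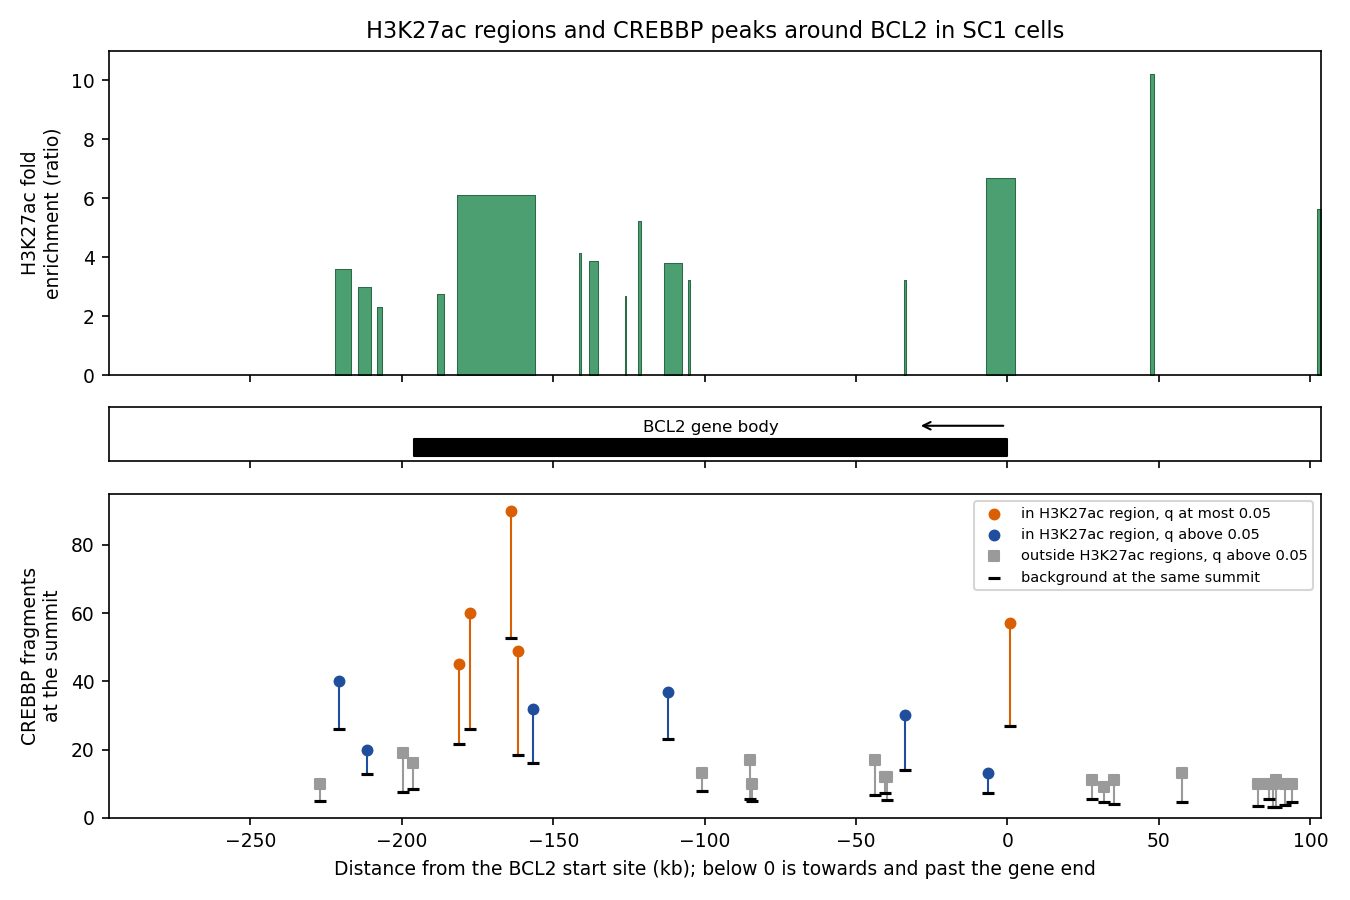
The horizontal axis is the distance from the BCL2 start site in kb, with the gene body as a black bar and the arrow in the direction of transcription. The upper panel gives each H3K27ac region at its true width, with the authors' fold enrichment as height. The lower panel gives the fragments at each CREBBP summit as a point, joined to the background at that summit. The 5 peaks with q of at most 0.05, in orange, stand in the widest region and beside the start site, with 45 to 90 fragments.

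The other 4 CREBBP peaks in H3K27ac regions did not reach the threshold. In the region 107 kb into the gene, the peak from 60874486 to 60874850 had 37 fragments over 23.1 and a −log10 q of 0. In the small region 33.4 kb into the gene, the one from 60952611 to 60952988 had 30 over 14.0 and a −log10 q of 0.722. Past the gene end, the peak from 60765764 to 60766208 had 40 over 25.9 and the one from 60775097 to 60775400 had 20 over 12.9. Both had a −log10 q of 0, and their folds, 1.53 and 1.51, were the lowest of the window. These counts exceed those of every peak outside the mark, yet the folds do not.

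Of the 30 peaks, 11 lay in an H3K27ac region, 36.7% (19.9 to 56.1%), against 5.06% of the whole CREBBP list and 259 of 6139 on the rest of chromosome 18, 4.22% (3.73 to 4.75%). All 11 were covered by the mark over their full width. This share was the highest of the 187 windows of the chromosome that held a CREBBP peak. The next were 35.1% from 53090000 to 53490000 and 35.0% from 3490000 to 3890000, which also follow it in H3K27ac-covered length. Its first place again depends on the windows chosen, since 10 of 1481 windows placed every 50 kb and 2 of 374 windows of 200 kb had a higher share. Over chromosomes 1 to 22 and X, 116 of 7125 other windows had a higher share. A window with more of the mark offers more length for peaks to fall in, and the part of this in the share was not tested. H3K27ac covered 16.1% of the BCL2 window. From the side of the mark, 6 of the 15 regions held a CREBBP peak, 40% (16.3 to 67.7%), against 49.0% of all H3K27ac regions, which is within that interval.

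Peaks inside the mark had 13 to 90 fragments, with a median of 40, over a median background of 21.5. The 19 peaks of the window outside the mark had 9 to 19 fragments, with a median of 11, over a median background of 4.97. Median folds were 1.94 inside and 2.10 outside. On the rest of chromosome 18 the median was 13 fragments inside, over a median background of 5.54, and 5 outside, over 1.30. Median folds there were 2.14 inside and 2.17 outside, so the larger fragment numbers at BCL2 did not come with larger folds. The 5 BCL2 peaks with q of at most 0.05 had the most fragments of all 270 peaks of chromosome 18 that lay in H3K27ac regions, and the sixth, with 44, lay from 48680049 to 48680736. Peaks with more than 90 fragments numbered 7 on the chromosome, from 183 to 2622, over backgrounds from 88.7 upward, and none of them lay in an H3K27ac region. In 1 of these 7 the solution missed the deposited p by more than 0.001.

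Of the 5 largest folds of the window, 4 lay outside the mark and had few fragments. They were 2.87 (61075139 to 61075689, 11 fragments over 3.18), 2.75 (60901515 to 60901819, 17 over 5.54), 2.57 (61074299 to 61074585, 10 over 3.28) and 2.48 (61068705 to 61069357, 10 over 3.44). The remaining one was the peak of fold 2.57 in the widest region, the only one of the 5 with a q of at most 0.05. The peaks outside the mark were spread as 6 in the unmarked stretch of the gene, 3 past its end and 10 beyond the start site. Among the 10, 6 lay within 12.1 kb, from 61068705 to 61080768, with 10 to 11 fragments each, a grouping singled out after its values were seen.

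Every CREBBP peak of the BCL2 window stood on a raised background. The median background was 7.02 fragments and the lowest 3.18, against a median of 1.33 on the rest of chromosome 18. The commonest background of the list, 1.30 fragments, was found at no peak of the window and at 47.9% of all peaks of the chromosome. In each of the other 186 windows with a peak, the lowest background was between 1.30 and 1.72, and their window medians reached at most 3.70. The median number of fragments, 13, was likewise above that of each of these windows, whose medians lay between 4 and 10. The median fold, 2.0, was lower than in 183 of the 186. The share of peaks in H3K27ac regions was 4.22% on the rest of chromosome 18, and 30.2% among its peaks with a background of at least 3.18. In the raised stretch of 5.20 Mb described at the end it was 1.21% outside the BCL2 window. That share takes all peaks there, with a median background of 2.84 and a lowest of 1.30, and H3K27ac covered only 22.5 kb. The 2 sets are therefore not alike. The part of the background in this share, or in the share of q at most 0.05, was not tested.

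A comparison added after seeing the data set the BCL2 peaks beside others that also stood on a raised background. Of the 666 peaks on the rest of chromosome 18 with a background at least as high as the lowest of the window, 201 lay in H3K27ac regions, 30.2% (26.7 to 33.8%). The share of 36.7% at BCL2 has an interval that includes this value. The threshold on q was met by 49 of the 666, 7.36% (5.49 to 9.61%), which is also within the interval of the 16.7% at BCL2. Over the whole list the same cut on background kept 15950 peaks, of which 8966 lay in H3K27ac regions, 56.2% (55.4 to 57.0%). The 36.7% at BCL2 is below this value, which lies just past the upper end of its interval, so the direction of the difference turns with the peaks it is set against. A q of at most 0.05 was met by 14.9% of these peaks (14.4 to 15.5%), within the interval of the 16.7% at BCL2. The cut sets only a lowest background, and the median background was 7.02 fragments at BCL2, 4.62 in the set from chromosome 18 and 5.54 in the set from the whole list.

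**Figure D4:**
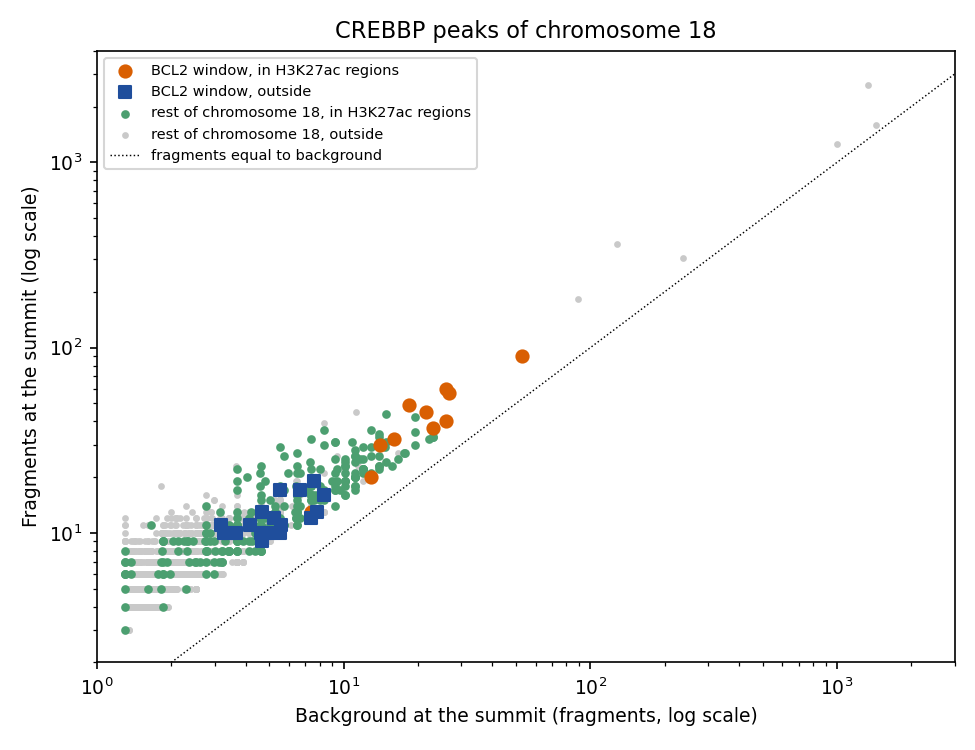
Each point is a CREBBP peak of chromosome 18, with the solved background and the solved fragments at its summit on log axes, and the dotted line marks equal values. Peaks of the BCL2 window are in orange (in H3K27ac regions) and blue (outside), and those of the rest of the chromosome are in green (in H3K27ac regions) and grey (outside). The BCL2 peaks in the mark reach 90 fragments over 52.7, and the blue ones start at a background of 3.18, above the commonest value of 1.30.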

How the data were processed

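ChIP-seq of SC1 cells gave 2 peak lists, for CREBBP (narrow) and H3K27ac (broad). The submitters' processing notes name fastp, Bowtie2, STAR, MACS2 and hg19. Their roles, versions and settings, the control library and any pooling are not stated in the sources used here. In both deposited lists the fold enrichment (a ratio), the −log10 p and −log10 q, and the score are the authors' own, and serve only to describe and rank peaks within a list. Library depth is not stated.

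Positions count from 1. Intervals with at least 1 base in the window were its members, and inside H3K27ac means at least 1 shared base. Other windows were laid edge to edge from the BCL2 window. Genes other than BCL2 and cell type markers were to be described only with an hg19 annotation and are not analysed here. Named were every H3K27ac region of the window and each CREBBP peak inside one, of q at most 0.05, among the 5 largest folds or nearest the start. The members and lists were chosen with earlier results of these data known. Fragments and background were solved within 0.001 of −log10 p (99.99% of peaks). Overlap and solution code was tested on simulated data. Python 3.11.15, numpy 2.4.6, pandas 2.3.3, scipy 1.17.1 and matplotlib 3.10.9 were used. Alternatives were other windows, memberships, overlaps and subsets by p or q.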

Additional observations from a re-analysis of the deposited data

How the results depend on the processing

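Of 64 alternative values, 47 stayed close to those reported (within 1.5 times for counts and lengths, within the 95% interval for shares and places) and 17 moved. With a window of 200 kb there were 16 CREBBP peaks and 56.2% lay in H3K27ac regions. With 800 kb there were 56 and 19.6%, since the neighbouring stretches hold little of the mark. At 800 kb the share of other windows with fewer CREBBP peaks was 38.9%, with fewer H3K27ac regions 94.7% and with a lower share inside 97.8%. Counting regions by their midpoint put 100% of the other windows below BCL2 by number of regions. Only 5 CREBBP peaks had a q of at most 0.05, 100% of them inside, against 36 of 124 on the rest of chromosome 18. The gene then held 2.04 per 100 kb, against 7.14. The upper 50% of H3K27ac regions by q left 4 regions and 38.0 kb. An alternative chosen after seeing the data kept peaks with a background of at least 3.18 fragments, which sets only a lowest value. On the rest of chromosome 18 the shares were then 30.2% inside and 7.36% with q of at most 0.05. Those of the whole list were 56.2% and 14.9%. The share inside at BCL2, 36.7%, is higher than 30.2% and lower than 56.2%. On chromosomes 1 to 22 and X, 8 of 7574 other windows had a longer H3K27ac-covered length. Low fragment numbers limit all CREBBP values. No paired analysis was possible because there was a single sample in each group.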

Other observations

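The raised background did not end at the window, and the stretch described here was chosen after its values were seen. Counting outwards from BCL2 as long as the median background of a window was at least 2.61 fragments, double the median of the other windows, the stretch ran from 60290000 to 65490000, 5.20 Mb in 13 windows. The window just below it had a median background of 1.98 fragments and the window just above it 1.30. Outside the BCL2 window this stretch held 825 CREBBP peaks, with a median of 9 fragments over 2.84, of which 10 lay in H3K27ac regions (1.21%) and 54 had a q of at most 0.05 (6.55%). H3K27ac covered 64.3 kb in the BCL2 window alone, against 22.5 kb over the rest of the stretch. That length includes 0.473 kb of the region that crosses the upper edge of the BCL2 window, and 14 further regions make up the remainder. The windows of chromosome 18 with the largest numbers of CREBBP peaks, 120, 102, 80 and 80, all lie in this stretch.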
